A study of Sus scrofa with 9 samples.

Results

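The end of a heat exposure was compared with the unheated state in cultured porcine immature Sertoli cells. The 3 HS0.5 libraries came from cells held at 43 °C for 0.5 h and collected at 0 h of recovery, and the 3 control libraries from cells collected before heat. The testes were taken at 80 to 90 days of gestation, and the cells were kept in minimum essential medium with Eagle's salts and 10% serum at 37 °C and 5% CO2, and were cultured for 6 h after seeding. Their total RNA was extracted with Trizol and sequenced. The controls did not go through the 0.5 h of further culture or its handling, so these go with the contrast and cannot be told apart from heat. No genotype, breed or number of animals is given, and the labels do not say whether replicates 1 to 3 were separate cultures. The p-values thus reflect no more than the variation, which could be technical, among the 9 libraries fitted. These are the 6 described and 3 from cells heated alike and given 36 h of recovery. The genes described are those with at least 1 FPKM (fragments per kilobase of transcript, scaled to the mapped fragments of the library) in at least 3 of the 6 libraries, which were 10776 of 20681 genes with values.

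Sertoli cells line the seminiferous cords, secrete anti-Müllerian hormone and nurse the germ cells, and the testis of most mammals is kept cooler than the body core. When proteins unfold in a heated cell, heat shock factor 1 is freed from chaperones and drives transcription of HSP70, HSP40 and HSP90 genes, which refold proteins or pass them on for breakdown. Heat also halts much of splicing and transcription in mammalian cells, through changes in the phosphorylation of splicing factors and of the elongation machinery.

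The 6 libraries held 18110565 to 21034021 recovered reads, and 10036 of the 10776 genes reached 1 FPKM in every library. Control replicate 2 stood apart: its log2 values correlated at 0.971 and 0.967 with control replicates 1 and 3, which correlated at 0.994 with each other. The first principal component held 66.8% of the variance. On it the HS0.5 libraries lay at -11.1, -14.8 and -22.2, control replicates 1 and 3 at 5.72 and 1.32, and control replicate 2 at 41.0. The axis that set the heated libraries apart from the controls was thus also the axis along which control replicate 2 left the other controls, and counts of calls over all genes and over gene lists are given with and without it.

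Of 16 Sertoli markers with values, 9 passed the filter, among them CLU, AMH, WT1, SOX9 and GATA6. AMH, the hormone that makes the Müllerian duct regress, had 21.3, 18.6 and 17.9 FPKM in HS0.5, against 19.3, 26.6 and 20.9 FPKM in control. DMRT1 and INHA were listed at 0 in all 6 libraries, and NR5A1, DHH and KITLG stayed under 0.2 FPKM. Part of the Sertoli list was thus present and part absent. No endothelial or erythroid marker passed the filter. In germ, Leydig, myoid and leukocyte lists 1, 2, 3 and 4 markers did, with CYP17A1, DDX4, MYH11 and CSF1R at or near 0 in all 6 libraries and TAGLN and CD74 as the abundant members. In the kidney and duct tubule epithelium list 13 of 14 markers with values passed, with a summed level of 903 to 940 FPKM in HS0.5 and 916 to 1317 FPKM in control. The epithelial keratin KRT7 alone had 354 to 365 FPKM in HS0.5 and 333 to 509 FPKM in control, so the sum is not particular to tubules. With all libraries only GATA6 of these markers, a testis somatic cell factor (log2 change 0.38, limma adjusted p = 0.035), was called. Its call ended without every library in turn except control replicate 2 and HS0.5-R36 replicate 1 (0.0537 to 0.133). PAX2, a transcription factor of kidney and duct tubules, was called down only without control replicate 2 (-0.47, 0.013, against -0.36 and 0.092 with it).

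By the end of the exposure the chaperone genes HSPA6, HSP70.2 and DNAJB1 stood above all other genes in their change, with smaller rises of other inducible chaperones, sterol synthesis genes, splicing kinases, elongation cyclins, MAP kinase phosphatases and zinc finger genes. Feedback transcription factors of the clock, Notch and stress pathways, some growth arrest genes and some small nucleolar RNAs fell, while other growth arrest genes and small nucleolar RNAs rose. In all, 429 of 10776 genes passed (3.98%), with 273 up (2.53%) and 156 down (1.45%), by limma's moderated test on log2(FPKM + 1) with Benjamini-Hochberg adjustment at 0.05. At an unadjusted p under 0.05 there were 3361. Without control replicate 2 the count was 463 (4.3%), with 317 up (2.94%) and 146 down (1.35%), and 343 genes (3.18%) were called in both fits, 229 up (2.13%) and 114 down (1.06%). The HS0.5 and control values did not overlap in 4489 genes (41.7%), 2298 higher (21.3%) and 2191 lower (20.3%) in HS0.5, and the 429 calls were all among these. Since the groups of these calls did not overlap, leaving out a library could not change their sign. Over all genes, 1663 had a different sign with and without control replicate 2. Dropping HS0.5 replicate 1, 2 or 3 left 176, 112 or 84 calls, and dropping control replicate 1 left 161. The HS0.5-R36 libraries, from cells heated alike and given 36 h of recovery, enter the estimate of spread, and dropping their replicate 2 or 3 left 205 or 219. Reads taken with plain library totals (limma's voom) gave 203 rises and 200 falls, so rises were 50.4% of the calls there, against 63.6% in the deposited scaling. Without control replicate 2 the same fit gave 266 rises and 321 falls (45.3% rises), so falls outnumbered rises there, against 68.5% rises in the deposited scaling.

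**Figure D1:**
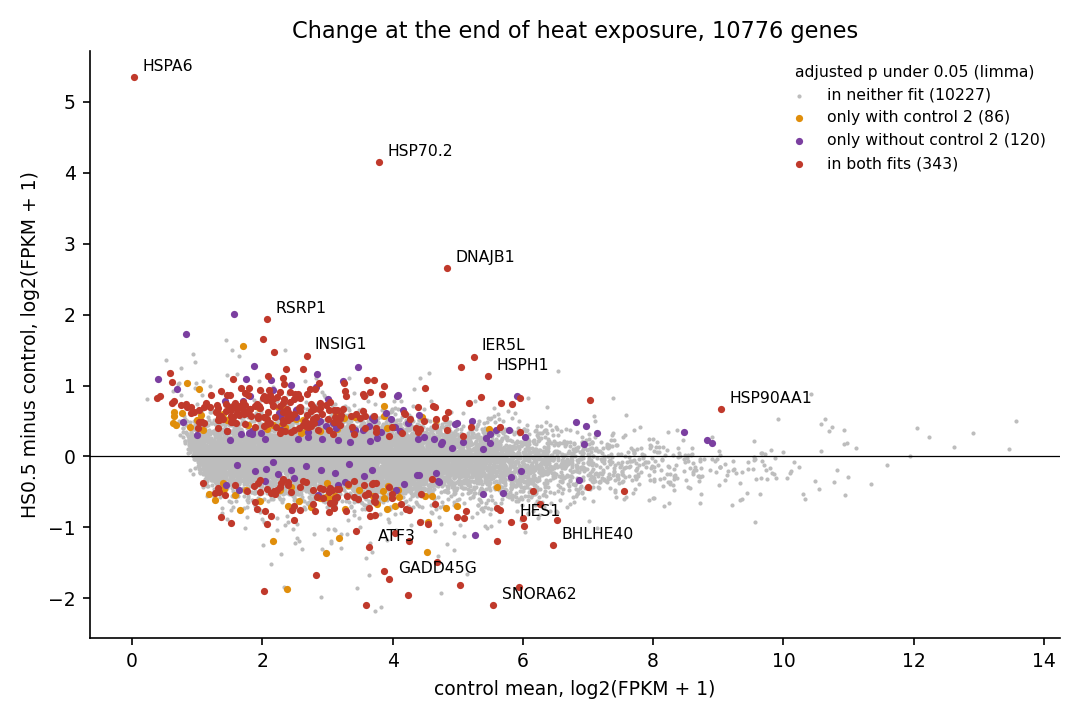
Each point is a gene, with its control mean on the horizontal axis and its difference, HS0.5 minus control, on the vertical axis, both on the log2(FPKM + 1) scale. Colours give the calls with and without control replicate 2; HSPA6, HSP70.2 and DNAJB1 lie above all others, and 10227 genes were called in neither fit.

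The genes described first are the 73 (0.677% of those tested) whose calls held without each of the 9 libraries in turn, 53 up (0.492%) and 20 down (0.186%). The other calls are named with the libraries whose removal ended them. A log2 change is the difference of mean log2(FPKM + 1), HS0.5 minus control, so changes of weakly expressed genes are understated. Positions are those deposited, and no source used here names their genome build. In such bulk RNA, fewer cells with a transcript and less of it per cell cannot be told apart.

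Leaving HSPA6 aside, which passed the filter only through HS0.5, 2 of 7 HSP70 and HSP110 genes rose, as did 2 of 22 HSP40 genes and 2 of 26 HSP90, co-chaperone and BAG genes, and none fell, beside 2.53% of all genes up. The rises numbered 4, 3 and 3 without control replicate 2, beside 2.94%. The stress-inducible HSP70 gene HSPA6 (ENSSSCG00000047932) had 37.3, 24.0 and 75.2 FPKM in HS0.5, against 0.0335, 0.0153 and 0.0329 FPKM in control. Every control lay near 0 and every heated library far above, with replicate 3 the highest. Over the libraries that was 8232 reads in HS0.5 and 5 in control, a ratio of 1649 corrected for library size (exact 95% interval 706 to 5079, counting error only). Because of that filter its change (5.35 ± 0.32, SE, limma adjusted p = 5.7e-05) is a description. HSP70.2, the main inducible HSP70, had 249, 182 and 319 FPKM in HS0.5, against 12.1, 15.3 and 11.3 FPKM in control. It has near-identical neighbours, so the reads may be shared among copies, and its change of 4.15 ± 0.20 (limma adjusted p = 5.1e-05; 4.27 without control replicate 2) is uncertain to that extent.

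The J-domain partner of HSP70 and its exchange factor followed at lower amplitude. DNAJB1, which hands unfolded clients to HSP70 (ENSSSCG00000013784, chromosome 2, 64750820 to 64765485, plus strand), had 181, 145 and 219 FPKM in HS0.5, against 25.7, 31.8 and 25.4 FPKM in control. The groups did not come close to each other, and the change was 2.66 ± 0.15 (limma adjusted p = 5.7e-05). HSPH1, an HSP110 that loads HSP70 with fresh nucleotide (ENSSSCG00000009334, chromosome 11, 7733874 to 7759576, minus strand), had 86.7, 78.9 and 129 FPKM in HS0.5, against 45.9, 41.7 and 41.8 FPKM in control. Replicate 3 was again highest, and the change was 1.14 ± 0.16 (limma adjusted p = 0.0083; 0.016 without control replicate 2). ZFAND2A, an AN1 zinc finger protein that binds the proteasome under stress (ENSSSCG00000007554, chromosome 3, 756433 to 775796, minus strand), had 26.4, 21.9 and 32.5 FPKM in HS0.5, against 10.5, 14.3 and 11.7 FPKM in control. Its change of 1.08 ± 0.15 (limma adjusted p = 0.0075) was the only call among 20 ubiquitin and AN1 genes.

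Further chaperone calls rested on particular libraries. The HSP70 co-chaperone BAG3 had 25.8, 17.9 and 32.8 FPKM in HS0.5, against 10.3, 12.1 and 11.3 FPKM in control, a change of 1.07 (limma adjusted p = 0.015). That call ended without HS0.5 replicate 1 (0.0563) or control replicate 1 (0.0536). The HSP40 gene DNAJB4 averaged 6.65 ± 1.61 FPKM in HS0.5 and 3.39 ± 0.24 FPKM in control (SD, n = 3 each), a change of 0.78 (limma adjusted p = 0.020) that was lost without the same libraries (0.0504 and 0.0642). HSP90AA1, the inducible cytosolic HSP90, had 787, 786 and 956 FPKM in HS0.5, against 510, 585 and 491 FPKM in control. No library of one group reached the other, but its change of 0.67 (limma adjusted p = 0.020) was lost without HS0.5 replicate 1, 2 or 3 (0.0511, 0.0614 and 0.0932) or control replicate 1 (0.0697). In all 8 called chaperone and AN1 genes HS0.5 replicate 3 was highest, replicate 1 next and replicate 2 lowest, an order found in 77 of all 273 rises (28.2%).

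Several constitutive chaperones were called only without control replicate 2. HSPA8, the constitutive HSP70, had 422, 424 and 508 FPKM in HS0.5, against 326, 419 and 319 FPKM in control, where replicate 2 nearly reached the heated libraries. Its change was 0.35 with that library (limma adjusted p = 0.12) and 0.48 without it (0.027). Likewise DNAJA1, HSPA14 and the mitochondrial HSP60 gene HSPD1 were called only without it, at 0.42, 0.33 and 0.27 (limma adjusted p = 0.038, 0.045 and 0.041), against 0.33, 0.26 and 0.19 with it (0.10, 0.11 and 0.20). CACYBP, a co-chaperone adaptor of ubiquitin ligases, went the same way, at 0.42 without it (0.028) and 0.27 with it (0.18). No heat shock factor or small heat shock protein gene (0 of 7), TRiC or prefoldin subunit (0 of 13) or proteasome subunit (0 of 42) was called in either fit. HSF1 averaged 26 ± 1.62 FPKM in HS0.5 and 28.8 ± 4.85 FPKM in control, and HSPB1 321 ± 10.2 FPKM in HS0.5 and 379 ± 151 FPKM in control (SD, n = 3 each).

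Of 28 genes of cholesterol synthesis and sterol sensing, 10 rose (35.7%, beside 2.53% of all genes) and none fell, with the same 10 called without control replicate 2 and a median change of 0.07 beside -0.01 over all genes. The sterol sensor INSIG1, which holds the sterol-regulatory factors in the endoplasmic reticulum (ENSSSCG00000016420, chromosome 18, 2885611 to 2898767, minus strand), had 16.7, 15.8 and 16 FPKM in HS0.5, against 5.79, 5.09 and 5.35 FPKM in control. Both groups were tight and far apart, with a change of 1.42 ± 0.08 (limma adjusted p = 5.7e-05). SQLE, the squalene epoxidase gene (ENSSSCG00000005970, chromosome 4, 14669791 to 14700126, minus strand), had 33.2, 31.2 and 35.7 FPKM in HS0.5, against 20.1, 19.5 and 20.6 FPKM in control. The lowest heated library lay above the highest control, and the change was 0.70 ± 0.08 (limma adjusted p = 0.0024).

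The calls of INSIG1 and SQLE held without any library. SC5D, HMGCS1 and CYP51A1, enzymes at the end, the start and the middle of the pathway, changed by 0.88, 0.61 and 0.53 (limma adjusted p = 0.0083, 0.0083 and 0.0080) and missed the threshold only without HS0.5 replicate 3 (0.0509 for each). FDFT1, the squalene synthase gene (0.49, 0.0088), missed it without HS0.5 replicate 2 or 3 (0.0528 and 0.0537). STARD4, a sterol carrier (0.76, 0.029), lost its call without HS0.5 replicate 1, 2 or 3, control replicate 1 or HS0.5-R36 replicate 3 (0.0504 to 0.112). MSMO1, a sterol demethylase (0.50, 0.028), lost it without every library except control replicate 2 and HS0.5-R36 replicate 1 (0.0511 to 0.131). Unlike the chaperones, the sterol genes showed the order of HS0.5 replicate 3, then 1, then 2 in 4 of 10. DHCR7, which makes cholesterol in the last step, averaged 35.7 ± 0.90 FPKM in HS0.5 and 35.3 ± 3.29 FPKM in control, and the sterol-regulatory factor genes SREBF1 and SREBF2 were at 28.6 ± 3.75 and 27.2 ± 1.65 FPKM in HS0.5 and 30.2 ± 1.51 and 27.9 ± 1.36 FPKM in control (SD, n = 3 each). None of these passed.

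Among SR proteins and the kinases that phosphorylate them, 6 of 33 rose (18.2%, beside 2.53% of all genes) and none fell, in both fits. RSRP1, an arginine and serine rich protein of splicing speckles (ENSSSCG00000034449, chromosome 6, 82850947 to 82854268, minus strand), had 15.8, 14.1 and 15.3 FPKM in HS0.5, against 3.88, 2.58 and 3.21 FPKM in control. Its change of 1.94 ± 0.11 (limma adjusted p = 5.7e-05) was the highest among called genes after the 3 chaperones. CLK4, a kinase of SR proteins (ENSSSCG00000014028, chromosome 2, 79729529 to 79753712, plus strand), had 11.9, 11.8 and 12 FPKM in HS0.5, against 5.44, 5.81 and 5.75 FPKM in control. The libraries of each group were almost alike, and the change was 0.95 ± 0.06 (limma adjusted p = 0.00015). Its relative CLK1 averaged 14.1 ± 1.39 FPKM in HS0.5 and 6.34 ± 0.58 FPKM in control (SD, n = 3 each), a change of 1.04 (limma adjusted p = 0.0017), while CLK2 and CLK3 had changes of -0.02 and 0.09 and did not pass. DYRK1A, TRA2A and RSRC2 changed by 0.55, 0.43 and 0.35 (limma adjusted p = 0.025, 0.033 and 0.037). Those 3 calls ended without any of the HS0.5 libraries or control replicate 1, and for TRA2A and RSRC2 also without control replicate 3 or HS0.5-R36 replicates 2 or 3 (0.0554 to 0.158). No hnRNP or core spliceosome gene of 38 was called in either fit, though quantile normalization called 2 falls.

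Of 33 genes of transcription elongation and pausing, 3 rose (9.09%, beside 2.53% of all genes) and none fell, and without control replicate 2 there were 4 (beside 2.94%) with MED13, a Mediator kinase module subunit (0.52, limma adjusted p = 0.016, against 0.98 and 0.098 with it). With FPKM rescaled to equal sums per library, with voom, or with each library's trend with length removed, 3 rose and 1 fell. The cyclins CCNT1 and CCNT2 activate the elongation kinase P-TEFb. CCNT1 had 12.1, 11.9 and 13.4 FPKM in HS0.5, against 6.35, 5.00 and 6.71 FPKM in control, a change of 0.95 ± 0.10 (limma adjusted p = 0.0019). CCNT2 had 9.23, 9.81 and 10.2 FPKM in HS0.5, against 5.10, 3.95 and 5.55 FPKM in control, a change of 0.88 ± 0.11 (0.0046). In each the lowest control was replicate 2 and the groups stayed apart. The Mediator subunit gene MED26 changed by 0.60 (limma adjusted p = 0.013), a call lost without HS0.5 replicate 2 or 3 (0.0613 and 0.0725). PCF11, which ends transcription at the poly(A) site and stood in no list, had 12.5, 12.8 and 14.7 FPKM in HS0.5, against 5.73, 4.14 and 5.55 FPKM in control, a change of 1.23 ± 0.12 (limma adjusted p = 0.0017).

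Phosphatases that switch off MAP kinases rose, with 4 of 19 feedback genes up (21.1%, beside 2.53% of all genes) and none down in both fits. With FPKM rescaled to equal sums per library (TPM), quantile normalization or voom 2 were up, and voom also called 1 fall. DUSP1, which is induced by stress and acts on p38, JNK and ERK in the nucleus, had 213, 206 and 261 FPKM in HS0.5, against 121, 144 and 125 FPKM in control, a change of 0.79 ± 0.11 (limma adjusted p = 0.0083). DUSP5, a nuclear ERK phosphatase, had 94.8, 93.5 and 92.1 FPKM in HS0.5, against 57.4, 54.1 and 55.9 FPKM in control, a change of 0.73 ± 0.07 (limma adjusted p = 0.00092). The groups lay well apart in each gene. DUSP6 and DUSP10 changed by 0.35 and 0.31 (limma adjusted p = 0.046 and 0.039). The call of DUSP6 ended without each library except control replicate 2, and that of DUSP10 without each except control replicate 2 and HS0.5-R36 replicate 1 (0.0518 to 0.163).

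Several other rises held without any library. IER5L, a relative of the immediate-early gene IER5 whose deposited length of 1212 bp fills its whole span, had 109, 92.5 and 94.5 FPKM in HS0.5, against 31.6, 45.2 and 33.9 FPKM in control, a change of 1.41 ± 0.14 (limma adjusted p = 0.0017). SIX4, a homeobox factor of early gonad development in mice, had 10.8, 11 and 12.9 FPKM in HS0.5, against 3.76, 2.70 and 4.11 FPKM in control, a change of 1.48 ± 0.14 (limma adjusted p = 0.0014). It was the only call among 22 homeobox genes listed, and without control replicate 2 HOXB6 was called too (0.58, 0.022, against 0.45 and 0.082 with it). RCAN1, an inhibitor of the phosphatase calcineurin, averaged 72.2 ± 5.78 FPKM in HS0.5 and 39.9 ± 2.77 FPKM in control (0.84, 0.0017), and RND3, an atypical small GTPase that loosens actin stress fibres, 60.02 ± 5.07 FPKM in HS0.5 and 35.1 ± 0.29 FPKM in control (0.75, 0.0030; SD, n = 3 each, limma adjusted p). The zinc exporter gene SLC30A1 (0.76, 0.0066), the antiproliferative gene TOB2 (0.88, 0.0026), the ubiquitin ligase gene TRAF6 (0.85, 0.0034), the anaphase-promoting complex inhibitor gene FBXO5 (0.80, 0.0017) and the adaptors of cullin ligases KLHL11 (1.13, 0.0062), KLHL15 (0.94, 0.0043) and KBTBD8 (0.70, 0.0070) were also up (limma adjusted p). KLB, a coreceptor of FGF hormones, USP49, SLC16A4 and ZNF41 stayed under 1 FPKM in each control and passed the filter only through HS0.5. Their changes of 1.18, 0.85, 0.83 and 0.70 are given as a description, as are those of all 38 genes that passed only through HS0.5 and 30 only through control.

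**Figure D2:**
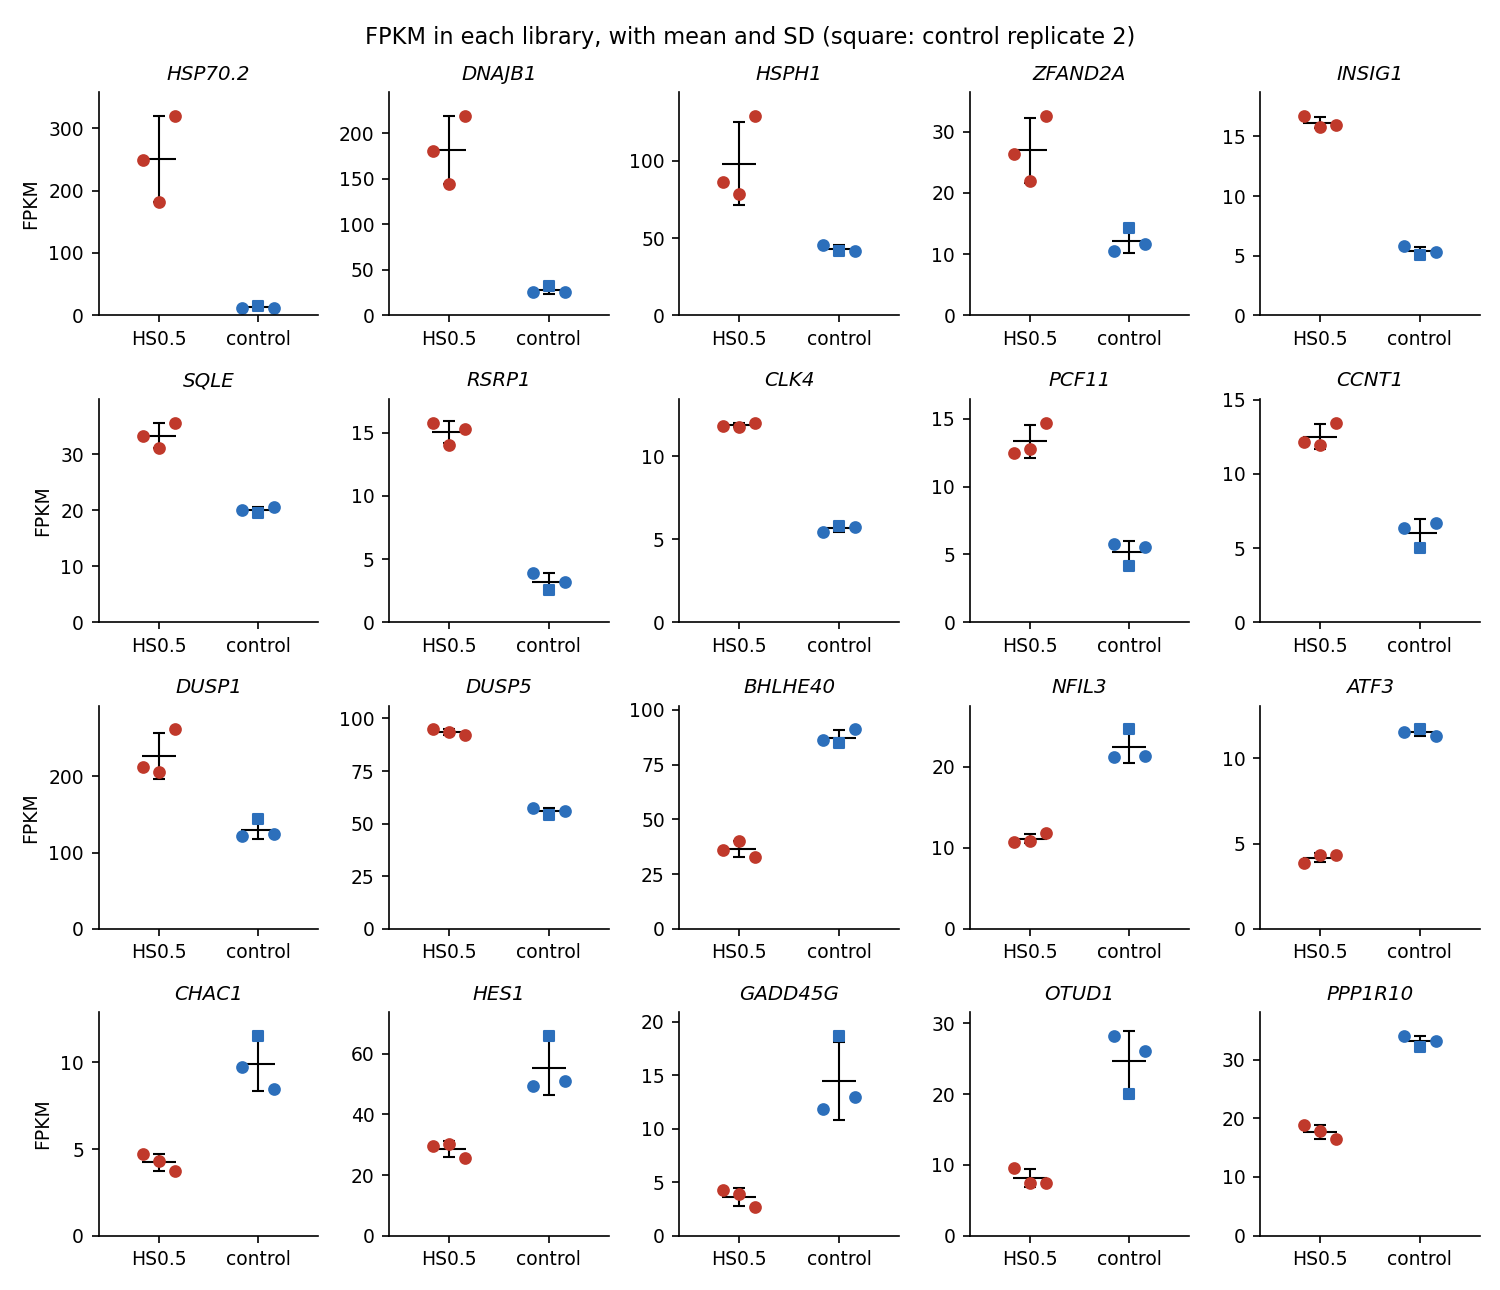
FPKM of 20 genes in each library, HS0.5 in red on the left and control in blue on the right of each panel, with bars for the mean and SD of 3 libraries and a square for control replicate 2. HS0.5 lies above control in the first 12 panels and below it in the last 8, with no overlap in any.

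The falls that held without any library included the transcriptional repressors BHLHE40, NFIL3 and HES1, though larger falls are given below. BHLHE40, a basic helix-loop-helix repressor of the clock and of growth (ENSSSCG00000036136, chromosome 13, 61526197 to 61533686, plus strand), had 36.1, 40.0 and 32.8 FPKM in HS0.5, against 86.3, 84.7 and 91.0 FPKM in control. Heated libraries held less than every control by a wide margin, and the change was -1.25 ± 0.09 (limma adjusted p = 0.00015). NFIL3, a repressor of D-box clock genes (ENSSSCG00000009592, chromosome 14, 2588891 to 2603255, minus strand), had 10.8, 10.9 and 11.8 FPKM in HS0.5, against 21.3, 24.6 and 21.3 FPKM in control, a change of -0.95 ± 0.08 (limma adjusted p = 0.00073). HES1, the Notch effector (ENSSSCG00000031356, chromosome 13, 131135724 to 131138236, plus strand), had 29.6, 30.3 and 25.5 FPKM in HS0.5, against 49.4, 65.8 and 51.1 FPKM in control, a change of -0.93 ± 0.12 (limma adjusted p = 0.0045; -0.80 without control replicate 2). Of 15 clock genes 3 fell (20%, beside 1.45% of all genes), BHLHE40, NFIL3 and BHLHE41, and TEF rose (6.67%, beside 2.53%). NR1D2 was a further rise without control replicate 2 (0.40, 0.017, against 0.61 and 0.061 with it). With TPM 2 fell and 0 rose, and with voom 3 fell and 0 rose. The BHLHE41 call (-0.58, 0.013) ended without HS0.5 replicate 2 or 3 or control replicate 1 (0.0528 to 0.0718), and that of TEF (0.41, 0.049) without each library except control replicate 2 (0.0550 to 0.172). The level of the period gene PER1 was 5.62 ± 0.47 FPKM in HS0.5 and 5.44 ± 0.37 FPKM in control (SD, n = 3 each; 0.04, limma adjusted p = 0.76).

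In the integrated stress response list, 5 of 41 genes fell (12.2%, beside 1.45% of all genes) and 1 rose (2.44%, beside 2.53%). Without control replicate 2 these were 4 and 1, and with TPM 3 fell and 1 rose. ATF3, a stress-inducible factor (ENSSSCG00000015595, chromosome 9, 130770428 to 130787462, minus strand), had 3.87, 4.32 and 4.32 FPKM in HS0.5, against 11.5, 11.7 and 11.3 FPKM in control. Each group varied little, and the change was -1.28 ± 0.07 (limma adjusted p = 5.7e-05). CHAC1, which degrades glutathione (ENSSSCG00000038521, chromosome 1, 130360513 to 130363308, minus strand), had 4.70, 4.31 and 3.73 FPKM in HS0.5, against 9.72, 11.5 and 8.47 FPKM in control, a change of -1.05 ± 0.12 (limma adjusted p = 0.0026). TRIB1, a pseudokinase scaffold of a ubiquitin ligase, averaged 10.2 ± 0.39 FPKM in HS0.5 and 18 ± 1.99 FPKM in control (SD, n = 3 each), a change of -0.76 (limma adjusted p = 0.0027). SESN2 and PPP1R15A changed by -0.43 and -0.56 (limma adjusted p = 0.013 and 0.049), and DDIT4, an inhibitor of mTORC1 and the only rise, by 0.63 (0.014). The call of SESN2 ended without HS0.5 replicate 2 or 3 or control replicate 1 (0.0536 to 0.0665), that of DDIT4 without HS0.5 replicate 1, 2 or 3 (0.0528 to 0.0712), and that of PPP1R15A without each library except control replicate 3 and HS0.5-R36 replicate 1 (0.0658 to 0.194). ATF4, the factor of this response that is controlled by translation, averaged 114 ± 5.97 FPKM in HS0.5 and 117 ± 20.4 FPKM in control, and did not pass (-0.03).

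Growth arrest and p53 genes had 4 falls (16.7%, beside 1.45% of all genes) and 2 rises among 24, or 5 falls and 1 rise without control replicate 2. GADD45G, a stress sensor that binds MAP kinase kinases (ENSSSCG00000035249, chromosome 14, 1165982 to 1167538, plus strand), had 4.27, 3.92 and 2.69 FPKM in HS0.5, against 11.9, 18.6 and 13 FPKM in control. Control replicate 2 was the highest, and the change was -1.73 ± 0.18 with it (limma adjusted p = 0.0018) and -1.55 without it (0.0017). GADD45A had 48.6, 48.2 and 46.1 FPKM in HS0.5, against 81.5, 111 and 79.5 FPKM in control, a change of -0.90 (limma adjusted p = 0.0083) that missed the threshold only without HS0.5 replicate 3 (0.0509). CDKN1A, the cyclin-dependent kinase inhibitor p21, changed by -0.49 (0.028), and its call ended without HS0.5 replicates 1, 2 or 3, control replicate 1 or HS0.5-R36 replicates 2 or 3 (0.0504 to 0.133).

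Other falls that held without any library stood outside these groups. OTUD1, a deubiquitinase (ENSSSCG00000011076, chromosome 10, 51619680 to 51621116, minus strand), had 9.61, 7.46 and 7.46 FPKM in HS0.5, against 28.2, 19.98 and 26 FPKM in control, a change of -1.48 ± 0.18 (limma adjusted p = 0.0030). PPP1R10, which directs protein phosphatase 1 to RNA polymerase II, had 18.8, 17.8 and 16.5 FPKM in HS0.5, against 34.0, 32.2 and 33.2 FPKM in control, a change of -0.87 ± 0.08 (limma adjusted p = 0.00092). The libraries of each of these genes fell into 2 separate groups. PIM1, a growth-promoting kinase (-0.86, 0.0026), SGK1, a kinase induced by glucocorticoids (-0.79, 0.0021), SMAD7, the inhibitory SMAD of TGF-beta signalling (-0.65, 0.0083), and SNAPC4, a subunit of the complex that transcribes small nuclear RNAs (-0.72, 0.010), were also down (limma adjusted p).

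The immediate-early list went both ways, with 8 of 35 down (22.9%, beside 1.45% of all genes) and 2 up (5.71%, beside 2.53%). Without control replicate 2 these were 9 down and 4 up, and with TPM 6 down and 1 up. HES1 and SGK1 fell and IER5L rose, as given above. JUN, an AP-1 subunit whose deposited biotype is pseudogene, had 2.65, 1.39 and 2.12 FPKM in HS0.5, against 4.96, 4.41 and 4.40 FPKM in control, a change of -0.89 (limma adjusted p = 0.015). The call was lost without HS0.5 replicate 3 (0.0674) or control replicate 1 (0.0546). FOS, its partner, had 12.4, 11.5 and 16.3 FPKM in HS0.5, against 9.04, 10.9 and 9.57 FPKM in control, and did not pass (0.40, 0.098). IER5, NR4A1, CSRNP1, KLF6 and CITED2 changed by -0.87, -0.70, -0.56, -0.49 and -0.32 (limma adjusted p = 0.027, 0.025, 0.010, 0.030 and 0.039). ZFP36, which destabilises cytokine transcripts, changed by 0.65 (0.023). CSRNP1 lost its call without HS0.5 replicate 3 (0.0537). IER5, NR4A1 and ZFP36 lost theirs without any HS0.5 library or control replicate 1 (0.0509 to 0.119), and KLF6 and CITED2 without each library except control replicate 2 and HS0.5-R36 replicate 1 (0.0535 to 0.160).

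Genes named ZNF, mostly DNA-binding zinc finger proteins, had 22 of 158 up (13.9%) and 3 down, or 20 up and 4 down without control replicate 2, beside 2.53% and 1.45% of all genes. With TPM 11 were up and 4 down. Among the 152 members that did not pass the filter through 1 group only, 19 were up. ZNF189 had 4.87, 4.77 and 6.18 FPKM in HS0.5, against 2.02, 2.32 and 2.22 FPKM in control, a change of 0.97 ± 0.10 (limma adjusted p = 0.0019). ZNF200 averaged 5.18 ± 0.36 FPKM in HS0.5 and 2.34 ± 0.23 FPKM in control (0.89, 0.0018), and ZNF628, a fall, 6.49 ± 0.72 FPKM in HS0.5 and 12.3 ± 1.31 FPKM in control (-0.83, 0.0056; SD, n = 3 each, limma adjusted p). These 3 held without any library. So did ZBTB11, a zinc finger factor with a BTB domain, at 9.14, 8.78 and 9.83 FPKM in HS0.5, against 4.15, 3.78 and 4.25 FPKM in control, a change of 1.02 ± 0.08 (0.00034). Over all 273 rises, of ZNF and other genes, the median control level was 4.10 FPKM, against 8.03 for the falls and 9.02 for all genes.

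**Figure D3:**
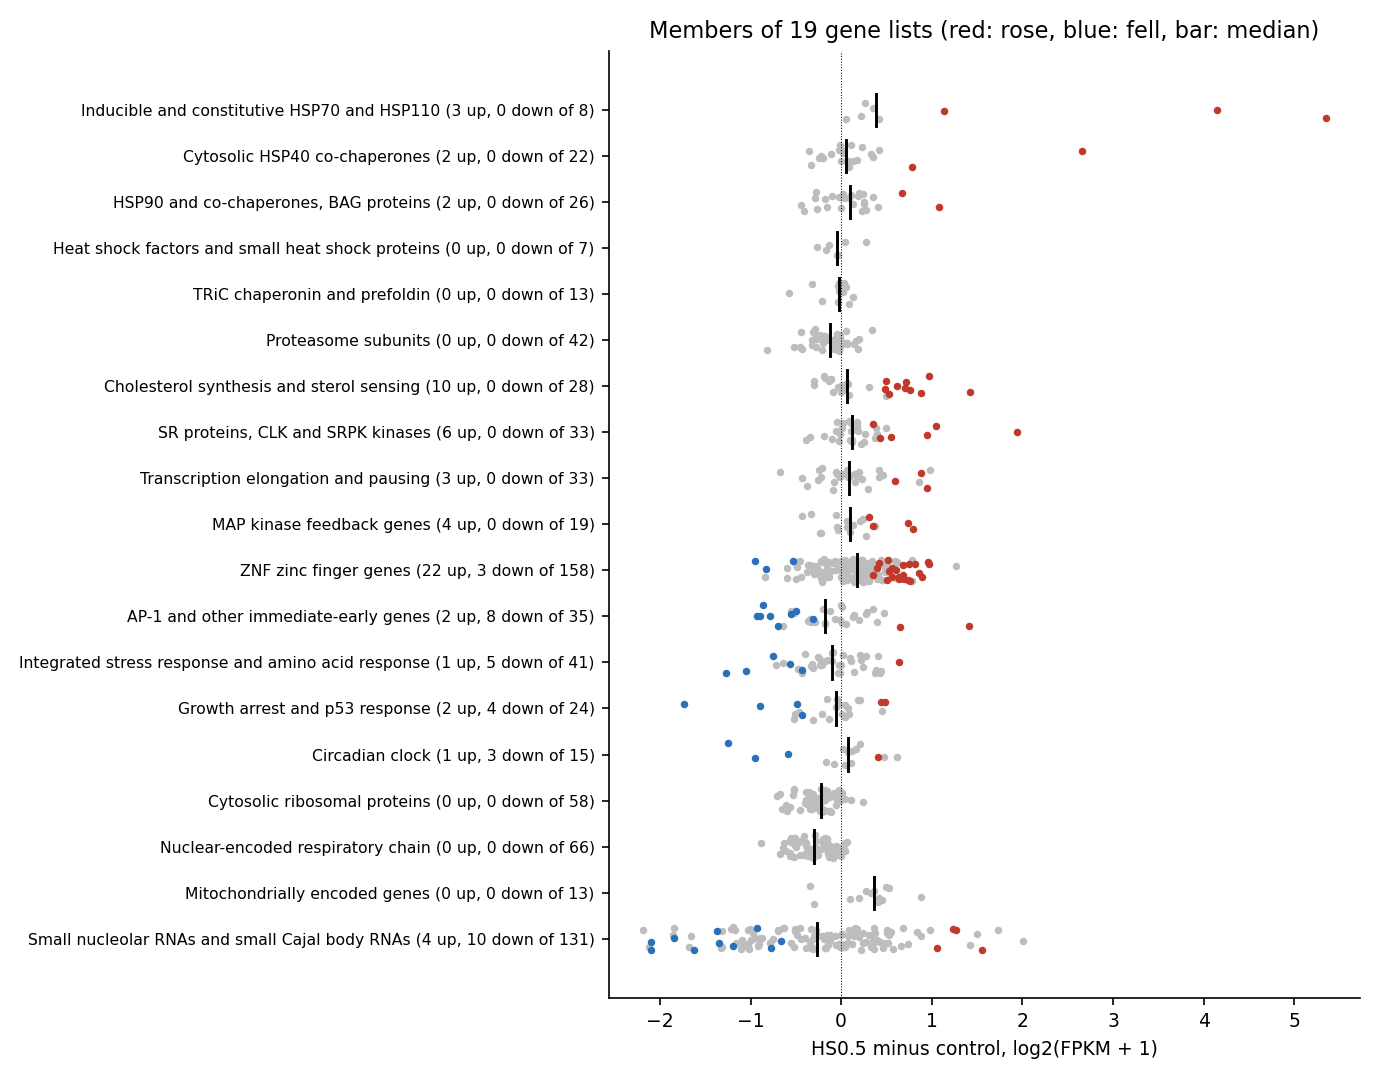
Log2 changes of the members of 19 gene lists, HS0.5 minus control, with called rises in red, called falls in blue, other members in grey and the list's median as a bar. The called chaperones lie far from the medians of their lists, while ribosomal and respiratory chain genes lie left of 0 as a body with no member called.

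Lists of abundant household genes had no call or nearly none, and their medians moved with control replicate 2. For 58 cytosolic ribosomal protein genes the median was -0.23 with that library and 0.00 without it, where RPL26 alone was called up. For 66 nuclear-encoded respiratory chain genes it was -0.30 and -0.10, and for 65 mitochondrial ribosomal protein genes -0.16 and 0.01, with none called in either fit. The summed FPKM of the ribosomal list was 23345 to 23741 in HS0.5 and 23498 to 39713 in control, with control replicate 2 the highest. Among the 13 protein genes of mitochondrial DNA none was called in either fit, and the median change was 0.37 with it and 0.36 without it. All genes of mitochondrial DNA together, with the rRNA and tRNA genes, held 5.32% ± 0.73 of all reads in HS0.5 and 4.06% ± 0.09 in control (SD, n = 3 each). The groups did not overlap, and the exact two-sided permutation p of 0.10 is the smallest that 3 against 3 libraries allow. Of the pair of mitochondrial rRNA genes, ENSSSCG00000018063 rose (0.76, limma adjusted p = 0.033, and 0.85 and 0.022 without control replicate 2), a call that ended without HS0.5 replicate 2 or 3, control replicate 1 or 3 or HS0.5-R36 replicate 2 or 3 (0.0582 to 0.125). The other, ENSSSCG00000018061, was called only without that library (1.11, 0.021, against 0.85 and 0.078 with it), and of 18 mitochondrial tRNA genes none was called in either fit. In the lists of replication and of mitosis, E2F8 alone was called (0.54, limma adjusted p = 0.048), and not without control replicate 2 (0.062), nor without HS0.5 replicates 1, 2 or 3, HS0.5-R36 replicates 2 or 3 or control replicate 1 (0.0706 to 0.19). No member of the NRF2, BCL2, TRiC, actin or tRNA synthetase lists was called in either fit.

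Small nucleolar RNAs (snoRNAs) guide the modification of ribosomal and spliceosomal RNA and are mostly cut from introns of other genes. Of 131 named snoRNAs and small Cajal body RNAs 10 fell (7.63%, beside 1.45% of all genes) and 4 rose, or 8 and 5 without control replicate 2, and with TPM 6 fell and 3 rose. SNORA62 (ENSSSCG00000019894, chromosome 13, 24080041 to 24080190, plus strand) had 6.50, 11.1 and 12.7 FPKM in HS0.5, against 35.9, 47.9 and 53.7 FPKM in control, or 80 reads in HS0.5 and 374 in control. Every heated library was far below every control, with a change of -2.10 ± 0.23 (limma adjusted p = 0.0023). SNORD21 (ENSSSCG00000018923, chromosome 4, 124361569 to 124361664, minus strand) had 11.3, 22.8 and 15.8 FPKM in HS0.5, against 53.1, 64.5 and 63.4 FPKM in control, or 84 reads in HS0.5 and 315 in control, a change of -1.84 ± 0.22 (0.0030). SNORA73 averaged 3.83 ± 1.21 FPKM in HS0.5 and 13.6 ± 1.83 FPKM in control (SD, n = 3 each; -1.62, 0.0030). In the other direction, SNORD86 had 85.3, 71.0 and 77.7 FPKM in HS0.5, against 26, 34.2 and 36.0 FPKM in control, or 353 reads in HS0.5 and 150 in control, a change of 1.27 ± 0.12 (limma adjusted p = 0.0015). SNORA72 had 11.3, 11.3 and 10.6 FPKM in HS0.5, against 3.90, 4.77 and 3.84 FPKM in control (1.23, limma adjusted p = 0.00076). These 5 calls held without any library.

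Most genes around the called snoRNAs were not called, as was so for most genes tested. Of all 174 snoRNAs that passed the filter 149 lay within 1 of 89 other genes that passed, and 16 of these were called, 12 down and 4 up. The surrounding gene was called for 1 of the 16, beside 3.98% of all genes. With control replicate 2 left out there were 15, 10 down and 5 up, and the surrounding gene was called in the same direction for 3, beside 4.3% of all genes called. SNORA62 lies in RPSA (400 ± 11.3 FPKM in HS0.5 and 469 ± 134 FPKM in control; -0.19, limma adjusted p = 0.46) and SNORD21 in RPL5 (398 ± 19.9 FPKM in HS0.5 and 422 ± 102 FPKM in control; -0.06, 0.80). SNORD86, which rose, lies in NOP56 (-0.09, 0.63), and SNORA72 in RPL30 (-0.46, 0.18). The 1 host called with its snoRNA when all libraries were kept was the lncRNA ENSSSCG00000043175, which fell together with SNORD31 inside it (-0.76 and -0.77, limma adjusted p = 0.029 and 0.023). Without control replicate 2, SNORD49B also fell with the lncRNA ENSSSCG00000046461 around it (-1.36 and -0.81, limma adjusted p = 0.034 and 0.0018), and the snoRNA ENSSSCG00000039904 rose with HSPA8 (1.37 and 0.48, 0.028 and 0.027). The calls of SNORD31 and its host ended without HS0.5 replicate 1, 2 or 3 or control replicate 1, and that of the lncRNA also without HS0.5-R36 replicate 2 (0.0536 to 0.133). Hosts with a ribosomal protein symbol held 38 of the snoRNAs, of which 7 fell and 1 rose, beside 12 and 4 of all 149. Hosts known by ID alone were not counted there. The counting strand is not given and the features overlap, so reads of a snoRNA and of its unspliced host cannot be told apart, and snoRNAs with several copies are uncertain.

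**Figure D4:**
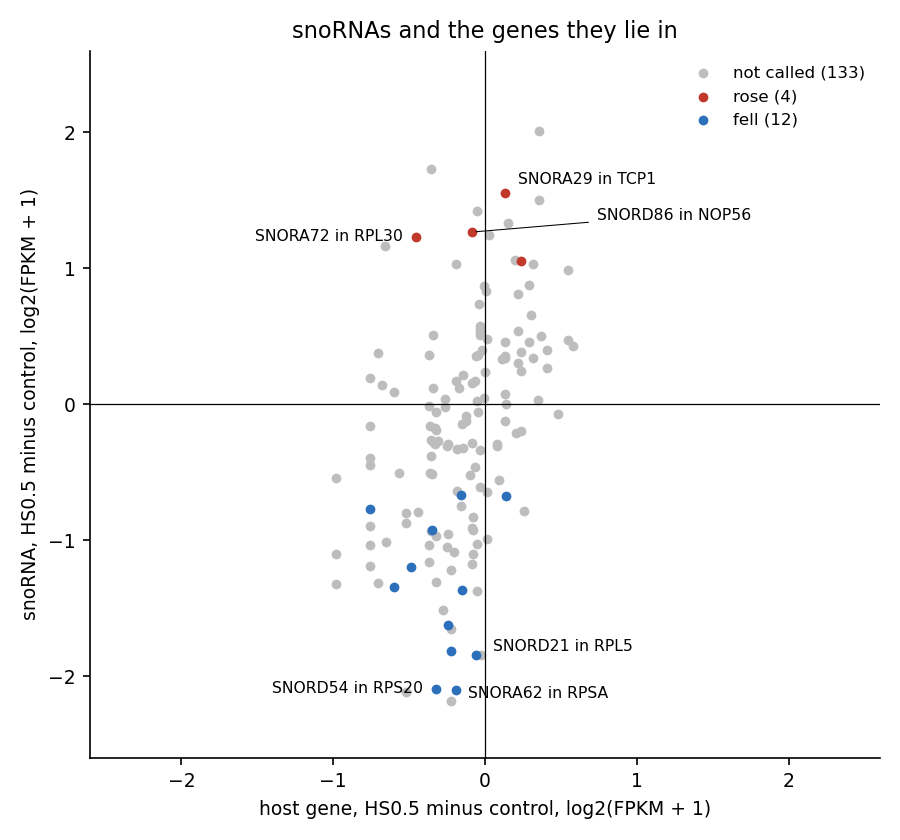
Each point is 1 of 149 snoRNAs that lie within another gene, with the log2 change of that gene on the horizontal axis and of the snoRNA on the vertical axis, both HS0.5 minus control. The 12 falls and 4 rises spread along the vertical axis while their hosts lie between -0.76 and 0.24.

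The change ran with gene length, and more so with control replicate 2. Among deciles of the genes by deposited length, the median change climbed in steps from -0.24 in the shortest decile to 0.17 in the longest, and from -0.10 to 0.08 without that library. Control replicate 2 minus the mean of control replicates 1 and 3 ran the other way, from 0.44 in the shortest decile to -0.29 in the longest. Rises numbered 12 in the shortest decile and 26 in the longest, and falls 29 and 3. These counts were 15 and 28 for rises and 23 and 9 for falls without that library. The protein-coding genes that fell were also compact in the genome, with a median span of 12409 bp and 43.0% under 10 kb, against 33607 bp and 9.73% for the rises and 32409 bp and 18.5% for all. When control replicate 2 was dropped, the falls had a median span of 17397 bp with 37.0% under 10 kb, against 32030 bp and 12.1% for the rises. With each library's trend with length removed, 345 genes rose and 234 fell, and the falls still had a median span of 17397 bp with 35.4% under 10 kb. The part of transcript length or RNA state in the calls was not tested beyond these values.

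**Figure D5:**
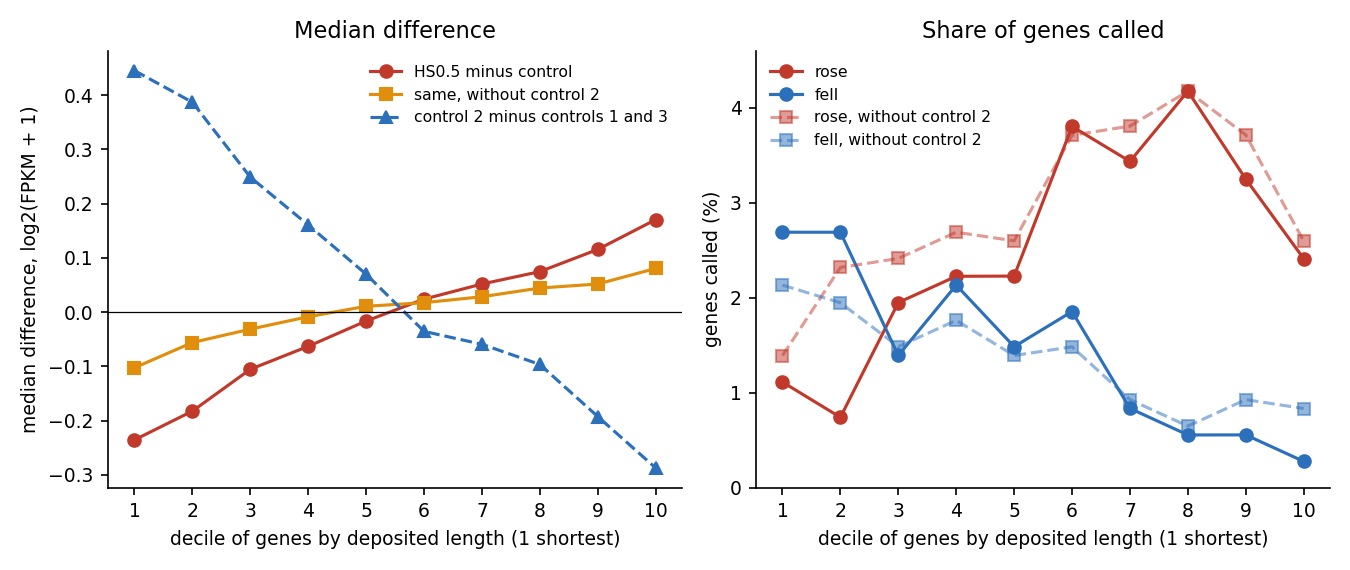
Left, the median difference on the log2(FPKM + 1) scale by decile of gene length for HS0.5 minus control, with and without control replicate 2, and for control replicate 2 minus the other controls. Right, the share of genes called in each decile; falls are most frequent among short genes and rises among those of the middle to long deciles.

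Calls lost without control replicate 2 stayed close to the threshold, and calls gained without it had been spread more widely. With that library 86 genes were called that were not called without it, 44 up and 42 down, and their median adjusted p without it was 0.0603 and the highest 0.0866. Among them was SNORA52, inside RPLP2 (-1.34 with it, limma adjusted p = 0.029, and -1.16 without it, 0.0514). Its call also ended without HS0.5 replicate 1, 2 or 3, control replicate 1 or HS0.5-R36 replicate 2 (0.0511 to 0.114). Only without it, 120 genes were called, 88 up and 32 down, with a median adjusted p of 0.0890 and the highest 0.763 when it was kept. The zinc finger factor HIVEP2 had 17.3, 17.5 and 18.2 FPKM in HS0.5, against 10.3, 4.49 and 10.6 FPKM in control, with control replicate 2 at less than any other library. Its change was 1.06 with that library (limma adjusted p = 0.0505) and 0.71 without it (0.0052). HBEGF, an EGF receptor ligand, had 57.5, 61.2 and 64.7 FPKM in HS0.5, against 46.0, 52.2 and 42.8 FPKM in control (0.38 and 0.0505 with it, 0.45 and 0.0084 without it). CLDN8, a claudin of tight junctions, had 13, 12.2 and 12.7 FPKM in HS0.5, against 19.3, 14.7 and 17.0 FPKM in control (-0.39 and 0.056 with it, -0.49 and 0.0082 without it). In the rises, control replicate 2 was the lowest control in 194 of 273 (71.1%, against 40.7% of all genes), and HS0.5 replicate 3 the highest heated library in 191 (70.0%, against 42.4%).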

How the data were processed

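The authors deposited FPKM per gene for each library, with gene length, position, biotype and protein domain. Per the submitters' processing notes, bcl2fastq made the base calls and HISAT2 2.0.5 aligned the reads. The annotation, counting strand, scaling and genome build are not given in the sources used here. FPKM multiplied by length gave whole multiples of a constant for 100% of values (tolerance 1e-06), so reads were recovered. Symbols for 9177 genes are the file's, those for 464 come from a reference table, and 1135 genes went by ID. The table has 8 lines without values.

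HS0.5 was compared with control by limma 3.58.1 in R 4.3.3. The fit took log2(FPKM + 1) of the 9 libraries of all 3 groups, a mean for each group, a variance trend and 6 residual degrees of freedom. Two-sided p-values were adjusted by Benjamini-Hochberg over 10776 genes, with 0.05 as threshold. Each fit was repeated without each library. Members and gene lists were chosen with earlier results of these data known, and lists are given as counts with no set test.

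The rule for named genes took the 10 largest rises and 10 largest falls with a symbol, at least 5 FPKM in the higher group and a call with and without control replicate 2; 4 each way of other biotypes; up to 3 calls per list; 16 preset heat, stress and Sertoli genes with values; and up to 5 calls lost and 5 gained without control replicate 2. Not all of these are described, and some genes are not reported here, though counts over lists include them. Genes whose calls held without any library, and other list members, were chosen after their values were seen. Without a sequence table, promoters and mature miRNAs were not analysed here, nor was the planned motif count.

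On simulated data with 10776 genes, the test recovered 100% of 50 genes at each of 4 log2 changes (1, -1, 2 and -2), with 15 false among 215 calls. The simulated counts had the same dispersion for every gene and no outlying library or length trend. Only genes averaging at least 5 FPKM were changed. The simulation thus checks that the test runs and does not measure recovery or false calls in the real libraries.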

Additional observations from a re-analysis of the deposited data

How the results depend on the processing

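Of 103 genes named by the rule, over 21 settings, 1877 outcomes kept their side of the threshold, 240 lost a call, 35 gained a call and 0 reversed a called direction. In the settings that leave out a library, a called direction could not reverse, since the groups of the calls did not overlap. Other results did turn: the median of the 65 mitochondrial ribosomal genes was -0.16, and 0.01 without control replicate 2, and the excess of rises became 321 falls against 266 rises under voom without that library. The 429 changed genes became 215 without a filter on low values, 227 with at least 5 FPKM, 203 after rescaling to the same sum (TPM), 119 in a fit of the 6 libraries alone, 4388 with limma's library weights and 220 with the replicate number as a block, and 84 to 480 when a library was left out. Without control replicate 2, the 463 became 250, 308, 387, 815, 3409 and 119 in the same order of settings, and after rescaling rises were 50.1% of the calls, against 68.5%. The 73 calls that held without any library became 120 with the length trend removed, 6 in the 6 libraries alone, 2 with library weights and 17 with the block. In the gene lists, the 112 calls became 69 without a filter, 55 in the 6 libraries alone and 668 with weights, and 45 to 126 when a library was left out. The cause was not tested, except that fits of fewer libraries or with a block have fewer residual degrees of freedom. Voom on recovered reads called 403 genes; it was added after the data were seen and used plain totals, since the planned TMM factors were not run. Whether the replicate numbers pair the samples could not be settled from 3 libraries a group. Correlations of same-numbered libraries, after group means were removed, were -0.07, 0.04 and 0.21. HS0.5 replicates 2 and 3 correlated best with the control of their own number, and HS0.5 replicate 1 with control replicate 2 (0.16). Few reads limit the snoRNAs, and 3 libraries a group limit every call.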

Other observations

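Among families by deposited protein domain, a grouping looked at after the values were seen, 2 had the highest shares of rises. Of 48 genes with a KRAB domain, which recruits silencers of chromatin and overlaps the ZNF list, 13 rose (27.1%) and none fell, or 12 and none without control replicate 2, beside 2.53% of all genes, and 12 of the 46 that did not pass the filter through 1 group only rose. Of 42 genes with a BTB domain, found in adaptors of cullin ubiquitin ligases and in transcription repressors, 10 rose (23.8%) and none fell, or 8 and none without that library. Among 26 families of at least 20 members, 12 had no rise. The zinc finger family zf-C2H2 came next after KRAB and BTB, with 5 of 31 up (16.1%) and 2 down in both fits. The KRAB genes are weakly expressed, with a median control level of 2.02 FPKM, and their median change was 0.30, or 0.28 with each library's length trend removed.

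Precursors of microRNAs were at the limit of these libraries. The precursor ssc-mir-221 had 4.91, 6.58 and 1.6 FPKM in HS0.5, against 18.8, 15.7 and 19.3 FPKM in control, from 16 reads in HS0.5 and 68 in control (-1.95, limma adjusted p = 0.014, and 0.0523 without control replicate 1). Of 22 miRNA genes that passed the filter, it and ssc-let-7d fell and 0 rose, beside 1.45% of all genes down, and the median change was -0.62. The call of ssc-let-7d was lost without control replicate 2 (-1.87 and 0.027 with it, 0.051 without it), which left 1 fall, beside 1.35% of all genes. In the list of 18 named precursors the median was -0.54, and -0.29 with each library's length trend removed. In ssc-let-7d, which passed the filter only through control, there were 2 reads in HS0.5 and 22 in control, a ratio of 0.091 (exact 95% interval 0.0104 to 0.370, counting error only).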
